A study of Mus musculus with 6 samples.

Results

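The second genomic copy of the microRNA-15/16 family, the Mir15b and Mir16-2 precursor genes, was described here together with Smc4, in which it lies, and with the neighbouring genes Trim59, Ift80 and Kpna4. These 6 genes were chosen by their symbol in the platform annotation, a rule that uses no measured value, though with earlier results of these data known. Each was measured by 1 probe set, so that they made up 6 of the 19938 genes with a single symbol. The cells were natural killer (NK) cells, innate lymphocytes with cytotoxic granules. They were sorted straight from spleens of C57Bl/6 mice aged 8-12 weeks as YFP+, CD27+, NK1.1+ and CD3-. The knockout group was the genotype labelled 15a/16-1FKO and the control group was labelled Ctrl, with 3 microarrays each. Both groups were gated on YFP, and the labels name neither the Cre driver nor the alleles of the controls. Arrays within a genotype are technical replicates by the series' design text. The p-values and intervals therefore reflect array-to-array spread alone, and the number of arrays limits only their precision. Whether the arrays of a genotype come from separate mice is not given in the labels. A difference between genotypes thus cannot be told apart from one between the sampled mice. The question addressed was whether the intact copy and its host gene were expressed differently in cells that had lost microRNA-15a and microRNA-16-1.

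MicroRNAs are short RNAs that guide Argonaute proteins to messenger RNAs, mainly through their seed, bases 2 to 8 from the 5′ end. The microRNA-15/16 family is known for restraining cell cycle and survival genes, and it is encoded by paired precursors at separate loci. One pair, Mir15a and Mir16-1, lies on mouse chromosome 14 and is the pair removed in the knockout. The other pair, Mir15b and Mir16-2, lies on chromosome 3 inside Smc4, the gene of a condensin ATPase that compacts chromosomes for mitosis. The intronic copy is thus transcribed as part of a gene associated with dividing cells. The chromosomal surroundings are related as well, since each pair is accompanied by an importin-alpha gene (Kpna4 or Kpna3) and by a membrane-anchored TRIM protein gene (Trim59 or Trim13).

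The mature sequences show what the intact copy can supply. They were taken from RefSeq on GRCm38.p6 and are printed 5′ to 3′ with the seed in capitals, from both the intact and the deleted copy.
miR-15b-5p (Mir15b, intact): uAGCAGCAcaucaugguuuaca
miR-16-5p (Mir16-2, intact): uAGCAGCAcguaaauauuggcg
miR-15a-5p (Mir15a, deleted): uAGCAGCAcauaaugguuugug
miR-16-5p (Mir16-1, deleted): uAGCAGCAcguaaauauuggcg
All 4 share 1 seed. The mature miR-16-5p was identical in both copies at 22 of 22 bases, so that no readout of this mature strand can tell which gene made it. The miR-15a-5p and miR-15b-5p strands matched at 18 of 22 positions aligned from the 5′ end. The opposite arms were less alike, with 12 of 22 positions matching between miR-16-1-3p and miR-16-2-3p and 12 of 22 between miR-15a-3p and miR-15b-3p. Among 1738 mature sequences in the RefSeq table, 11 carried this seed, and 6 of their precursor genes had a probe set with a single symbol here. Apart from the copies above, the measured ones were Mir195a and Mir497.

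The array measured the precursor genes, whose hairpins are shown because they carry the parts that differ between copies. Capitals mark the mature arms.
Mir15b: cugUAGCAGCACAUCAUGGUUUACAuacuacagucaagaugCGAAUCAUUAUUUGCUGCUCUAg
Mir16-2: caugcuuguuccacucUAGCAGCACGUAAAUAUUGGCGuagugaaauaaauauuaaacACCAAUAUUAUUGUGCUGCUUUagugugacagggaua
Mir16-1: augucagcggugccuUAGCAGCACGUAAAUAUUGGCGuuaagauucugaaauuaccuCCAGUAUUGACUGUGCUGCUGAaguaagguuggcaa
In GRCm38.p6 the Mir15b hairpin of 64 bases lies at chr3:69009772-69009835 and the Mir16-2 hairpin of 95 bases at chr3:69009902-69009996, both on the plus strand and 66 bases apart. Both lie between the ends of Smc4 in the RefSeq gene table. The Mir16-1 hairpin lies at chr14:61631880-61631972 on the minus strand. It matched Mir16-2 at 67 of 99 columns of a global alignment, and the shared bases include the whole miR-16-5p arm. The sequences of the array's probes were not used here, so whether a probe set of one copy also binds the other was not tested.

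The arrays carried the marks of the labelled cells. All 8 NK markers, among them Ncr1 and the NK1.1 gene Klrb1c, lay above a background level of 4.13 on the log2 scale, the level under which 95% of 1027 olfactory receptor genes lay. Fewer markers of other cells lay above it, with 2 of 5 for B cells, 3 of 7 for T cells, 5 of 9 for myeloid cells and 1 of 5 for red cells and platelets. The 3 T cell markers above it were the CD3 genes Cd3d, Cd3e and Cd3g, although the sort was CD3-, while Cd4, Cd8a, Cd8b1 and Cd5 lay under it. The mean log2 level over the T cell markers was 4.81 to 5.18 in knockout and 4.98 to 5.06 in control arrays, and that over the myeloid markers 5.10 to 5.33 and 4.97 to 5.32. For B cell markers it was 3.37 to 3.69 and 3.41 to 3.93. The mean over the red cell and platelet markers did not overlap between genotypes, at 3.32 to 3.41 in knockout and 3.42 to 3.61 in control arrays, all under background. Single markers with an unadjusted limma p under 0.05 were the platelet gene Gp5, under background, at -0.36 (SE 0.13) and the neutrophil gene S100a8 at 0.77 (SE 0.32). Of the 9 myeloid markers 6 were positive and 3 negative, with S100a9 at 0.18 (SE 0.49) and Lyz2 at -0.12 (SE 0.27). Of the 5 red cell and platelet markers 1 was positive and 4 negative. The part of such cells in the results was not tested. Over all 19938 genes the limma fit called 3 genes higher and 1 lower in the knockout at an adjusted p under 0.05, which is 0.0201% of the genes tested. In 8.33% of genes the knockout and control arrays were fully separated, and 3.47% had an unadjusted p under 0.05. Because these are bulk samples, fewer cells of a type and less RNA per cell cannot be told apart.

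The deleted copy was checked first. The Mir15a probe set had log2 levels of 7.14, 6.02 and 6.69 in the control arrays and 4.37, 3.53 and 3.43 in the knockout arrays. It was the 1 gene that fell past the threshold (limma log2 difference -2.84, SE 0.31, adjusted p = 0.0296), with no overlap between genotypes. The call ended without any one of 4 arrays, knockout replicate 2 or 3 or control replicate 1 or 3, though the difference was still -2.81 to -2.58 there (limma adjusted p = 0.150 to 0.184). The Mir16-1 probe set read 3.19, 3.20 and 3.77 in control and 2.61, 2.68 and 3.00 in knockout arrays, all under the background level.

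None of the 6 genes of the intact locus differed between the genotypes past the threshold, beside 0.0201% of all genes that did. Each had overlapping arrays, where 8.33% of all genes were fully separated. No member had an unadjusted limma p under 0.05, beside 3.47% of all genes. Counts of 0 among 6 genes lie near these shares. Their differences were positive for 4 and negative for 2, with a median of 0.01 on the log2 scale against -0.01 over all genes. The log2 differences ran from -0.29 for Mir15b to 0.13 for Trim59. Exact two-sided permutation tests over the arrays gave p between 0.4 and 1, where 3 against 3 arrays cannot go below 0.1.

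**Figure D1:**
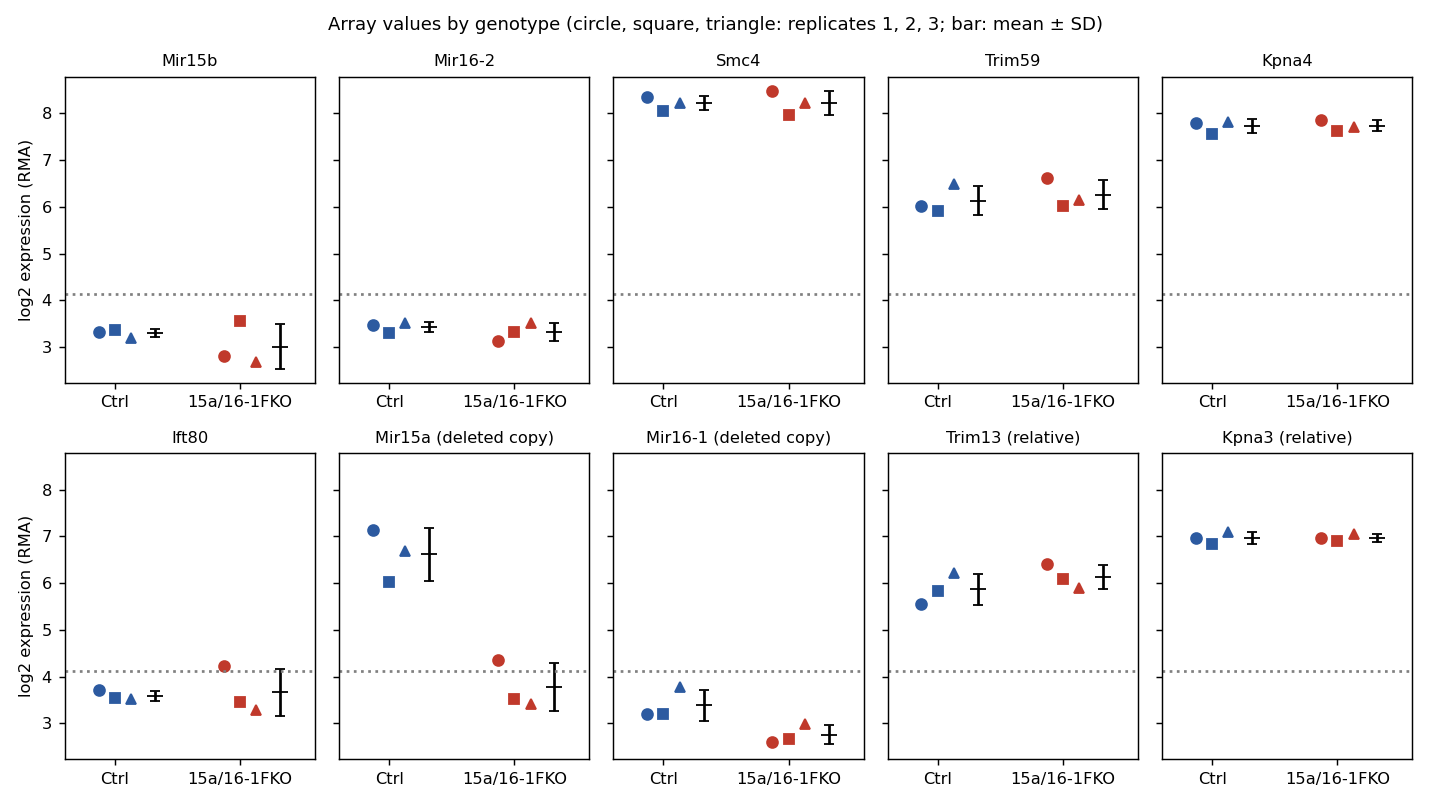
Log2 expression on each array for the 6 genes of the intact locus and for 4 related genes at the deleted locus, by genotype, with circles, squares and triangles for replicates 1, 2 and 3 and bars for the mean ± SD (n = 3). The dotted line is the olfactory receptor level of 4.13. The genotypes overlap for all 6 members, while the knockout arrays of Mir15a, at 3.43 to 4.37, lie under all control arrays, at 6.02 to 7.14.

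Mir15b, the precursor gene of microRNA-15b, read near background in both genotypes. Its log2 levels were 3.33, 3.37 and 3.20 in the control arrays. In the knockout arrays they were 2.81, 3.56 and 2.68. Knockout replicates 1 and 3 lay under every control array and replicate 2 above every control array, so that the knockout arrays spanned 0.88 where the controls spanned 0.17. The means were 3.01 ± 0.47 and 3.30 ± 0.09 (SD, n = 3 each), with a limma log2 difference of -0.29 (95% interval -0.78 to 0.21, adjusted p = 0.999). On the linear scale the interval runs from 1.71-fold lower to 1.15-fold higher. Without knockout replicate 2 the difference was -0.56 (SE 0.16, limma adjusted p = 1.00). This was the 1 setting of 87 over the members in which the unadjusted limma p was under 0.05. All 6 arrays lay under the background level, and RMA values there understate changes.

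Mir16-2, the partner of Mir15b, gave the narrower spread of the pair. It read 3.47, 3.31 and 3.51 in control arrays and 3.13, 3.31 and 3.53 in knockout arrays, with the lowest and the highest value of the 6 both in the knockout. The means were 3.43 ± 0.11 and 3.32 ± 0.20 (SD, n = 3), and the difference was -0.11 (SE 0.15, limma adjusted p = 0.999). The 95% interval of -0.45 to 0.23 runs from 1.36-fold lower to 1.17-fold higher. All 6 arrays of Mir16-2 lay under the background level too. Among the 300 microRNA precursor genes measured, 18.3% had a larger absolute difference than Mir15b and 54.7% a larger one than Mir16-2, and 82 of the 300 had a mean above background.

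The other measured precursors with the same seed, Mir195a and Mir497, form another cluster on chromosome 11. Mir497 averaged 4.17 in knockout and 4.57 in control arrays, with a difference of -0.40 (SE 0.20). Mir195a averaged 4.55 and 4.75, with a difference of -0.20 (SE 0.18). The 4 measured family precursors outside the deletion, Mir15b and Mir16-2 among them, had negative differences from -0.40 to -0.11, where 161 of 300 microRNA precursors were negative. None of those 4 passed the threshold over all genes. Mir195a lay above the background level on 6 arrays and Mir497 on 5, while Mir15b and Mir16-2 lay under it on all 6.

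Smc4, the host gene, was well above background and differed least of the 6 between the genotypes in the main fit. This order was not stable, as array weights gave -0.017 for Smc4 and -0.0018 for Kpna4. The log2 levels of Smc4 were 8.35, 8.05 and 8.23 in control arrays. They were 8.47, 7.96 and 8.22 in knockout arrays. The highest and the lowest array were both knockout arrays, and the controls lay between them. The means were 8.22 ± 0.26 in knockout and 8.21 ± 0.15 in control arrays (SD, n = 3), with a difference of 0.00 (SE 0.17, limma adjusted p = 0.999). The 95% interval of -0.37 to 0.38 corresponds to between 1.29-fold lower and 1.30-fold higher in the knockout. Of all genes, 2.29% had an absolute difference as small as that of Smc4 or smaller. The sign of a difference so near 0 turned under 4 of the settings tried, with values from -0.12 to -0.017.

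Trim59, a membrane-anchored RING-type TRIM protein encoded next to Smc4, varied more from array to array. It read 6.02, 5.90 and 6.48 in control arrays and 6.61, 6.03 and 6.14 in knockout arrays. The highest array was knockout replicate 1, followed by control replicate 3. The difference was 0.13 (95% interval -0.33 to 0.58, limma adjusted p = 0.999), with means of 6.26 ± 0.31 and 6.13 ± 0.31 (SD, n = 3). Without knockout replicate 1 it was -0.05.

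Ift80, a subunit of the intraflagellar transport complex B that carries cargo into cilia, lies on the other side of Smc4. It read 3.71, 3.55 and 3.52 in control arrays and 4.23, 3.46 and 3.30 in knockout arrays. Knockout replicate 1 was the 1 array above the background level, and the other knockout arrays lay under every control array. The difference was 0.07 (95% interval -0.44 to 0.58), and without knockout replicate 1 it was -0.21.

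Kpna4, an importin-alpha that binds nuclear localisation signals for transport through the nuclear pore, was the steadiest member. It read 7.80, 7.55 and 7.81 in control arrays and 7.85, 7.62 and 7.71 in knockout arrays. Its difference was 0.01 (SE 0.14, limma adjusted p = 0.999), with an interval from 1.24-fold lower to 1.26-fold higher. The residual spread of Kpna4, an SD of 0.13 within genotypes, lay at percentile 21.9 of all genes, and that of Ift80, 0.36, at percentile 90.1. The sign of the Kpna4 difference also turned under 4 settings, with values from -0.077 to -0.0018.

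**Figure D2:**
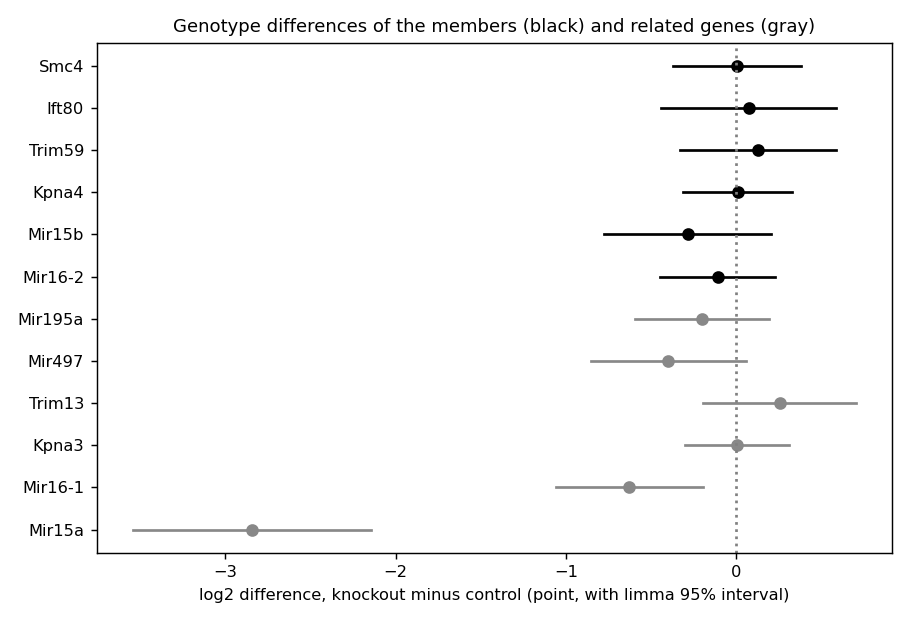
Log2 differences, knockout minus control, with 95% intervals from limma for the 6 genes of the intact locus (black) and for Mir195a, Mir497 and the 4 genes of the deleted locus (gray). The intervals of all 6 members include 0, and the widest among them, that of Ift80, runs from -0.44 to 0.58; the interval of Mir15a, -3.54 to -2.15, lies apart.

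These intervals bound what the arrays could show. With the spread of each gene, a member would have needed a log2 difference of 1.18 (Kpna4), 1.24 (Mir16-2), 1.38 (Smc4), 1.68 (Trim59), 1.80 (Mir15b) or 1.88 (Ift80) to become the fifth called gene, which required an unadjusted p of 1.25e-05. For Smc4 this equals a 2.60-fold change. For Mir15b, Mir16-2 and Ift80, which read near or under background, these values concern the compressed array scale and set no limit on the change in RNA. Smaller differences than these were not detectable as calls. The interval of Smc4 leaves out changes above 1.30-fold in either direction at the unadjusted level, but only against array-to-array spread. With technical replicates it sets no bound on a difference between mice of the 2 genotypes.

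The variation that Smc4 did show ran between arrays within each genotype and was shared in part with its neighbours, but also with genes elsewhere. Of 9688 other genes at or above the median brightness, 138 had a correlation coefficient above 0.9 with Smc4, higher than any neighbour. Among the 15 pairs of members, the correlation coefficient over the 6 arrays was 0.88 for Smc4 with Kpna4, 0.79 for Trim59 with Kpna4, 0.72 for Smc4 with Ift80 and 0.66 for Smc4 with Trim59. All 4 protein-coding members were highest in knockout replicate 1. By contrast the coefficient was -0.63 for Smc4 with Mir15b and -0.14 for Smc4 with Mir16-2, so the precursor probe sets did not follow their host gene from array to array. Mir15b and Mir16-2, 66 bases apart, had a coefficient of 0.00 with each other. The lowest of the 15 was -0.75, for Mir16-2 with Ift80. These coefficients are descriptions over 6 arrays of 2 genotypes that share array-wide effects, and those with a precursor rest on values under background.

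**Figure D3:**
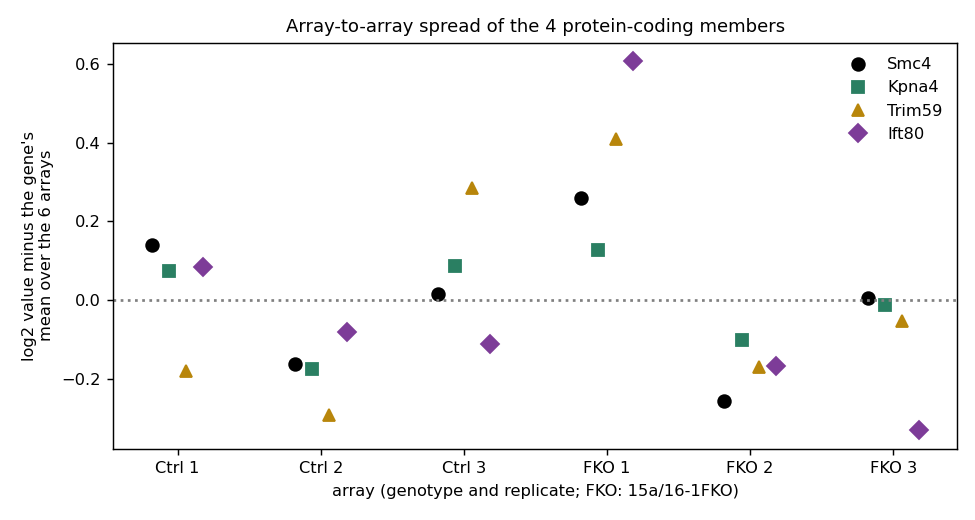
Log2 values of Smc4, Kpna4, Trim59 and Ift80 on each of the 6 arrays, each minus the gene's own mean over the arrays (FKO stands for 15a/16-1FKO). All 4 genes are highest in knockout replicate 1, and Smc4 and Kpna4 are lowest in replicate 2 of each genotype.

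Genes with the highest coefficients elsewhere were listed for each protein-coding member. Of 9688 other genes at or above the median brightness, 1.42% had a correlation coefficient above 0.9 with Smc4. The share was 0.516% for Trim59, 1.80% for Ift80 and 0.712% for Kpna4. The genes named are the top of these rankings over 6 arrays, and how high unrelated genes would reach was not tested. The 5 most alike were Zc3h14 (0.99), Phxr4 (0.99), Klra8 (0.99), Sec24d (0.99) and Bcas2 (0.98). They lie on chromosomes 12, 9, 6, 3 and 3 in that order, and the share of chromosome 3 among the genes compared was not counted. Klra8, an activating Ly49 receptor of NK cells, was lowest in replicate 2 of each genotype, at 9.50 in knockout and 9.67 in control. Nusap1, a spindle microtubule protein, was most like Trim59 (0.99), followed by Klhl25 (0.98). A430033K04Rik (1.00) and Mylpf (0.99) were most like Ift80, and Fam98b and Esco1 (0.99 each) most like Kpna4.

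The intact locus was then set against the deleted one, gene by gene, as the log2 gap between relatives within each array. The offset of a gap has no meaning because different probe sets are not on a common scale, and only its change between genotypes was compared. The gap Mir15b minus Mir15a was -3.80, -2.65 and -3.49 in control arrays and -1.56, 0.03 and -0.75 in knockout arrays. The change of 2.56 in the gap combines a difference of -2.84 for the deleted Mir15a with one of -0.29 for Mir15b. It therefore mostly restates the deletion, and Mir15b was under background on all 6 arrays. The gap Mir16-2 minus Mir16-1 was 0.28, 0.11 and -0.26 in control and 0.52, 0.64 and 0.53 in knockout arrays, a change of 0.52 beside a difference of -0.63 for the deleted Mir16-1 itself. Both of these probe sets were under background on all 6 arrays, so the size of this change has little meaning. Both gaps gave an exact two-sided permutation p = 0.1, the smallest that 3 against 3 arrays allow, and 0.2 after adjustment over the 4 pairs, so this test could not reach the threshold.

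The neighbouring pairs compare genes that were not deleted. The gap Trim59 minus Trim13 changed by -0.13 (exact permutation p = 0.4, adjusted 0.533) and that of Kpna4 minus Kpna3 by 0.00 (exact permutation p = 0.9). Trim13, the relative of Trim59 beside the deletion, differed by 0.25 (SE 0.20) on its own. Kpna3, the relative of Kpna4, differed by 0.00 (95% interval -0.30 to 0.31). Trim13 read 5.56, 5.84 and 6.22 in control and 6.40, 6.09 and 5.89 in knockout arrays, which overlapped.

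**Figure D4:**
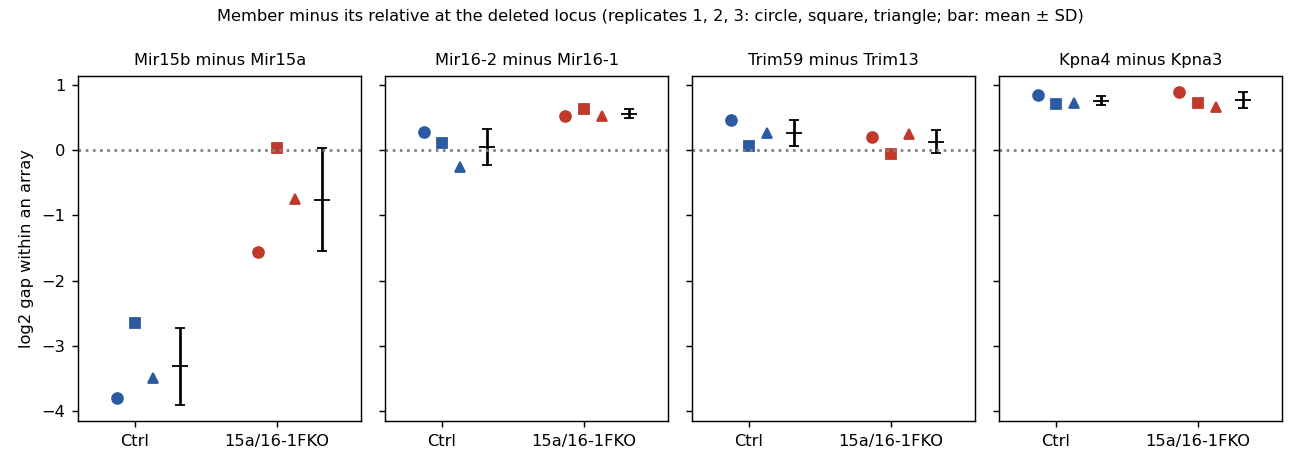
Log2 gap within each array between a gene of the intact locus and its relative at the deleted locus, by genotype, with the mean ± SD (n = 3 arrays). The gaps of the microRNA pairs changed by 2.56 and 0.52, mostly through the deleted Mir15a and Mir16-1, and those of the TRIM and importin pairs by -0.13 and 0.00.

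Genes that work with the members were examined next, and none was called, against 0.0201% of all genes. The counts and medians include Smc4, Ift80 and Kpna4 themselves, each in its own list, and Kpna3 beside Kpna4. Condensin needs SMC4 together with SMC2 and its regulatory subunits. Of 8 condensin subunits 6 were positive and 2 negative. Their median was 0.01 against -0.01 over all genes, and 0 had an unadjusted limma p under 0.05, beside 3.47% of all genes. Without single arrays the median ranged from -0.12 to 0.12. Ncaph, the kleisin of condensin I, differed by -0.29 (SE 0.18), Smc2 by -0.09 (SE 0.15), Ncaph2 by 0.12 (SE 0.24) and Ncapg by 0.06 (SE 0.22). Of 12 subunits of the related cohesin and SMC5/6 complexes 8 were positive and 4 negative, with a median of 0.07 (-0.028 to 0.14 without single arrays). They included the SUMO ligase Nsmce2 at 0.38 (SE 0.19), the cohesin core subunit Smc3 at 0.25 (SE 0.15), Eid3 at 0.27 (SE 0.34) and Nsmce3 at 0.13 (SE 0.18).

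Among the partners of Ift80 and Kpna4 no gene was called either, beside 0.0201% of all genes. Of 17 measured subunits of the ciliary transport complex B, 10 were positive and 7 negative (median 0.01). Hspb11 was the 1 subunit with an unadjusted limma p under 0.05, beside 3.47% of all genes. It read 5.42, 4.78 and 4.62 in knockout and 4.23, 4.37 and 4.60 in control arrays. Its difference was 0.54 (SE 0.21, limma adjusted p = 0.999) without overlap, in a list where 3 of 17 genes did not overlap beside 8.33% of all genes. Ift172 differed by -0.29 (SE 0.25), Ift57 by 0.26 (SE 0.20) and Ift81, under background, by 0.13 (SE 0.13). Of 13 importins and genes of the Ran cycle that powers nuclear transport, 7 were positive and 6 negative, with a median of 0.00. Kpna7, under background, differed by 0.32 (SE 0.21), Rangap1 by -0.14 (SE 0.14), the importin-alpha exporter Cse1l by 0.10 (SE 0.15) and the import receptor Kpnb1 by -0.05 (SE 0.16).

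Position on the chromosome gave no call either. In the order of the GRCm38.p6 gene table the 6 members followed each other as Ift80, Smc4, Mir15b, Mir16-2, Trim59 and Kpna4 with no other measured gene between them. The 10 measured genes on each side were positive in 10 cases and negative in 10 (median 0.02), and 5 of the 20 lay above background. B3galnt1, the globoside synthase gene and the third measured gene beyond Kpna4, was the 1 with an unadjusted p under 0.05 in limma, at 0.43 (SE 0.17, adjusted p = 0.999), with a mean of 2.54 under background. Bche differed by 0.28 (SE 0.15) and Ppm1l by 0.24 (SE 0.17). The median was 0.10 over 5 genes on each side and 0.09 over 20.

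**Figure D5:**
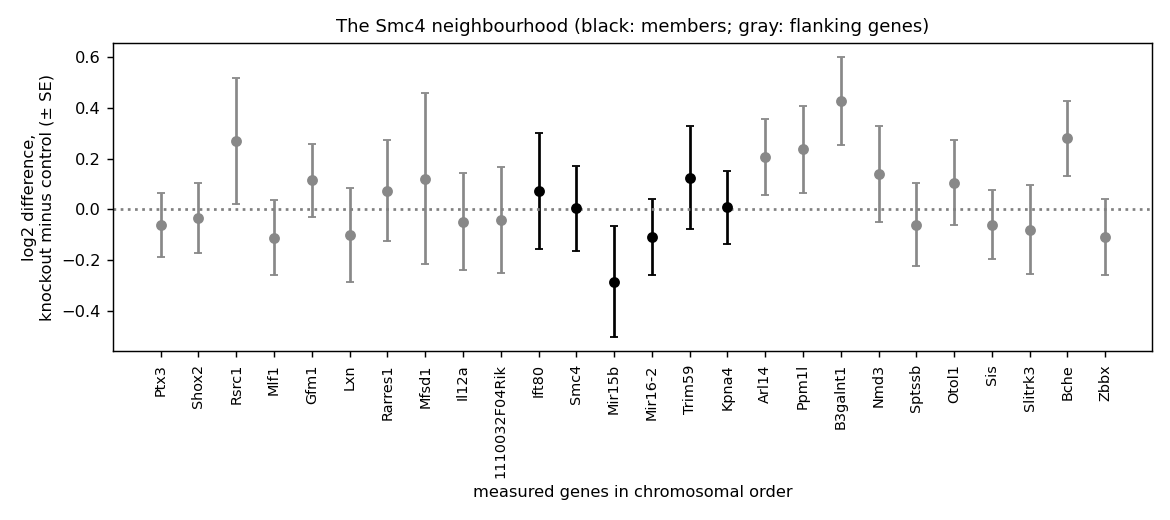
Log2 differences, knockout minus control, with SE from limma (3 arrays per genotype), for the 6 members (black) and the 10 measured genes on each side (gray) in chromosomal order, evenly spaced. The points lie between -0.29 (Mir15b) and 0.43 (B3galnt1), and no gene passed the threshold.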

How the data were processed

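The values are the authors' log2 expression levels of 35556 probe sets on 6 Affymetrix arrays. RMA and Partek 6.6 appear in the submitters' processing notes without the step of each. RMA subtracts background, quantile-normalizes arrays and compresses differences of dim probe sets. A genome build was not given in the sources used here. Array medians lay between 4.23 and 4.33, and arrays carry no read depth. Values look log2-scaled and uncentred.

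GEO's platform annotation gave 21789 probe sets 1 symbol, 1621 several and 12146 none. Each gene kept its probe set with the highest mean (19938 genes). Probe sets of the members, in the order Mir15b, Mir16-2, Smc4, Trim59, Ift80 and Kpna4, were 10492582, 10492584, 10492558, 10498620, 10498599 and 10498623. Genotypes were compared in R 4.3.3 by limma 3.58.1 (two-sided lmFit and eBayes, no block, no filter), adjusted by Benjamini-Hochberg over all genes and tested on simulated data. Differences are knockout minus control. Named list genes are the 4 with the smallest p in a list and the 3 among flanking genes; genes alike were ranked by Pearson's coefficient. Members and lists were chosen with earlier results of these data known; markers named were picked after values were seen. Alternatives were centring, quantile normalization, brightness, block, prior, array weights, each array left out and other probe sets.

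Replicate numbers occur in both genotypes. Deviations of same-numbered arrays correlated at 0.048, 0.15 and 0.14, and those of differently numbered arrays at -0.19 to 0.045. The same-numbered values were thus the highest, though small, and a pairing cannot be settled from them. The labels do not say that a number pairs arrays, so the main fit had no block. The fit with a block is given below.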

Additional observations from a re-analysis of the deposited data

How the results depend on the processing

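Over 87 alternative fits of the 6 members none passed the threshold (lowest adjusted p by limma 0.991). With the replicate number as a block, Smc4 differed by 0.00 (SE 0.14) and Mir15b by -0.29 (SE 0.18), 2 genes were called higher and 1 lower, and no member's call changed. Differences near 0 turned sign. With a second quantile normalization Kpna4 differed by -0.029, Smc4 by -0.025 and the gap Kpna4 minus Kpna3 by -9.31e-05, and with array weights Kpna4 differed by -0.00176 and Smc4 by -0.017. Leaving out each array in turn gave -0.12 to 0.13 for Smc4, -0.077 to 0.061 for Kpna4, -0.048 to 0.30 for Trim59, -0.21 to 0.25 for Ift80, -0.56 to -0.12 for Mir15b and -0.21 to -0.013 for Mir16-2. Without knockout replicate 1 all 4 protein-coding members were negative, at -0.12, -0.054, -0.048 and -0.21 for Smc4, Kpna4, Trim59 and Ift80. The gap Kpna4 minus Kpna3 ranged from -0.064 to 0.054, Mir15b minus Mir15a from 2.16 to 2.96, Mir16-2 minus Mir16-1 from 0.36 to 0.63 and Trim59 minus Trim13 from -0.23 to -0.031; with 5 arrays these exact tests cannot go below 0.1. Genes called higher numbered 2 in each fit without an array, and genes called lower 0 to 1. When every probe set of the table was tested, 0 were called higher and 0 lower. The cause was not tested. The median of the flanking genes ranged from -0.049 to 0.075 without single arrays, and over its brighter genes it was 0.12. The median of the family precursors, which include the deleted pair, was -0.34. It ranged from -0.52 to -0.23 without single arrays and was -1.52 over the 2 brighter ones, Mir15a and Mir195a. Without single arrays the medians of condensin (-0.12 to 0.12), cohesin and SMC5/6 (-0.028 to 0.14), complex B (-0.020 to 0.049) and importin genes (-0.067 to 0.054) turned sign. Mir15b, Mir16-2 and Ift80 were too dim for the fit of brighter genes, which has no value for them, and their low signal limits what the arrays can show.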
